A study of Mus musculus with 9 samples.

Results

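The growth adaptor gene Grb10 and 9 other imprinted genes, H19, Igf2, Igf2r, Cdkn1c, Peg3, Meg3, Dlk1, Mest and Plagl1, were followed in the mouse colon carcinoma line MC38. Mice express imprinted genes mainly from the maternal or the paternal copy, in some or most tissues. The genes were looked up by gene symbol among the 16399 genes of the expression tables. Of the 10 genes, 7 were listed and 3 (H19, Meg3 and Dlk1) were not. Grb10 was included because its level against MC38-P was already known to be low in the derivatives, so it was chosen by the very TPM values of the MC38-P and derivative libraries, and its values against MC38-P are a description without a test.

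RNA sequencing was carried out on cultured cells of 3 lines, with 3 libraries for each. MC38-P was the parental line, an epithelial colon cancer line of C57BL/6 mice that carries GFP and firefly luciferase. MC38-LM3a and MC38-LM3b carried the same labels and had gone through repeated rounds of injection into the spleen of immunocompetent C57BL/6 mice. Each round was followed by recovery of the tumor cells from liver metastases. The authors call the lines independently derived, but name a single line for each of the earlier rounds. Whether those rounds were shared is not stated, so changes found in both derivatives need not be separate events. The comparison asks how liver metastatic derivatives differ from the cells they came from, and since each derivative is 1 selected line, its 3 libraries are replicates of that line and not of the selection.

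Levels were given as TPM, read counts scaled for transcript length and to the same total in each library, so the sequencing depth is unknown and a gene at 0 is only listed at 0. Between 10875 and 11218 genes reached 1 TPM in a library, and the correlation between libraries on log2(TPM + 1) ranged from 0.969 to 0.997. Of the epithelial markers, the keratins Krt8, Krt18 and Krt19 gave most of a summed level of 2003 to 2318 TPM in MC38-P, 1592 to 1811 TPM in MC38-LM3a and 1584 to 1629 TPM in MC38-LM3b, whereas Cdh1 and Vil1 stayed at or under 0.08 and 0.13 TPM, and Cldn7 at or under 0.15 TPM. All 9 epithelial markers were listed, and 6 passed the filter on low values. Cdx2 passed through MC38-P only (1.80 to 2.86 TPM there and at most 0.92 TPM in the derivatives). Krt20 passed through the derivatives only (0.54 to 0.79 TPM in MC38-P), so neither gene is counted. Of Krt8, Krt18, Krt19 and Epcam, Krt19 rose and 3 fell in MC38-LM3a, where 14.1% of all tested genes rose and 13.8% fell. In MC38-LM3b none of them rose and 3 fell, where 35.6% of all tested genes rose and 11.2% fell. Epcam fell in both (log2 fold change -1.14 and -1.07). Of 9 mesenchymal markers 8 were listed, and their sum, mostly Vim, was 2906 to 2944 TPM in MC38-P and 3338 to 3566 TPM in the derivatives. Of the 6 tested, 1 rose and 3 fell in MC38-LM3a, and 2 rose and 3 fell in MC38-LM3b, beside the same shares of all tested genes. With offsets along GC content and transcript length 2 rose and 3 fell in MC38-LM3a, beside 26.5% and 24.6% of all genes in that fit. In MC38-LM3b 1 rose and 3 fell with these offsets, beside 29.3% and 28.3%. Col1a1 (-1.55 and -1.48), Col3a1 (-1.34 and -1.19) and Acta2 (-0.90 and -1.02) fell in both. The hepatocyte markers summed to between 17.4 and 26.7 TPM, mostly Afp (14.91 to 24.92 TPM) and Apoa2 (1.16 to 4.23 TPM), with Alb at or under 0.29 TPM. The leukocyte marker Ptprc was at or under 0.09 TPM, although the sum of 5 listed blood markers, nearly all Cd68, was 27.8 to 29.7 TPM in MC38-P and 34.3 to 45.7 TPM in the derivatives. The part of these marker differences in the results was not tested, and in bulk RNA fewer cells of a type and less RNA per cell cannot be told apart.

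Genomic imprinting marks the maternal and paternal copies of a gene differently in the germ line, mainly by DNA methylation at control regions, so that 1 parental copy stays silent. The genes it governs are enriched for regulators of fetal growth, and many sit together in clusters that share a control region. Grb10 encodes an adaptor protein that binds the insulin and IGF1 receptors and dampens their signal, and in most tissues it is expressed from the maternal copy. Igf2r, also maternal in mice, encodes the receptor that carries IGF2 and lysosomal enzymes to lysosomes, and Peg3 encodes a large zinc finger protein made from the paternal copy. RNA levels alone do not show which parental copy was read, and methylation was not measured.

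The promoters of the 2 of these genes that differed most between the lines are shown because CG pairs, the sites of DNA methylation in mammals, are their best known control feature. Each is a RefSeq window of 300 bases on GRCm38.p6, from 250 bases before to 50 bases after a transcript start, on the minus strand and read 5′ to 3′, with every CG in capitals. The expression files were made on GRCm39, so these coordinates are not those of the files. Grb10 has 2 such windows, at chr11:12037371-12037670 and chr11:12027922-12028221, and Peg3 has 1, at chr7:6730370-6730669.
Grb10, chr11:12037371-12037670: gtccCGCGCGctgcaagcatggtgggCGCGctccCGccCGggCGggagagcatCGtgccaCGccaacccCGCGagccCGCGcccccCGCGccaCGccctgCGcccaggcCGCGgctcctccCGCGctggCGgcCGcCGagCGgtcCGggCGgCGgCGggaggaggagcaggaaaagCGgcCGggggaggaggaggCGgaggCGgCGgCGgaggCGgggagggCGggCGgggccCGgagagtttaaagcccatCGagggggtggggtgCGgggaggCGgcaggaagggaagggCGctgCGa
Grb10, chr11:12027922-12028221: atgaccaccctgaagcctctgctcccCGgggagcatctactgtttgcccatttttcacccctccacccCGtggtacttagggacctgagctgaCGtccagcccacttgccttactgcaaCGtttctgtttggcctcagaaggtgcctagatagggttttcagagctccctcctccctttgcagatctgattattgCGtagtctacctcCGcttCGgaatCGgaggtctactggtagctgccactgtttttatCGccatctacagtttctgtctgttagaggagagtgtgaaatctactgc
Peg3, chr7:6730370-6730669: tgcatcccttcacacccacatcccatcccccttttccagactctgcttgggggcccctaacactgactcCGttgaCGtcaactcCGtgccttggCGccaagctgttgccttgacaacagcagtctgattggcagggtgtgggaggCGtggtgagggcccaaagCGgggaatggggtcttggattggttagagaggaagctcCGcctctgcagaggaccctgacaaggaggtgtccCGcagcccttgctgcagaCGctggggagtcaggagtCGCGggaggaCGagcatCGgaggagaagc

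The upstream Grb10 window held 45 CG pairs, a number reached by 1.93% of the 32841 promoter windows, whose median was 7. The downstream Grb10 window held 9 CG pairs, and 45.8% of windows had as many. The Peg3 window held 13, and 37.9% of windows had as many. The window of Igf2r, at chr17:12769657-12769956 on the minus strand, held 34, and 7.73% of windows had as many. The letters TGCCGC, known from the motif of the imprint-maintaining zinc finger protein ZFP57, were searched on both strands (as TGCCGC or GCGGCA). They occurred once in these 4 windows, in the upstream Grb10 window from base 275, and 11.6% of all windows hold them. A match describes the letters only, and its absence says nothing of the protein.

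Grb10 (NCBI Gene 14783, chromosome 11) was at 14.57, 14.84 and 10.25 TPM in the MC38-P libraries. It was at 0.04, 0.02 and 0.02 TPM in MC38-LM3a and was listed at 0 in the 3 MC38-LM3b libraries. Every MC38-P library therefore lay far above every derivative library, and the groups did not overlap. The mean was 13.2 ± 2.58 TPM (SD, n = 3) in MC38-P and 0.0267 ± 0.0115 TPM (SD, n = 3) in MC38-LM3a. On the log2(TPM + 1) scale, which understates the change of a gene that falls to near 0, MC38-LM3a was 3.77 below MC38-P (log2 fold change -3.77, SE 0.140), and for MC38-LM3b, listed at 0, the difference of -3.81 on this scale depends on the pseudocount of 1 and is not a fold. Among the 7633 genes with at least 10 TPM in every MC38-P library, Grb10 was the only 1 under 0.1 TPM in every derivative library, and also the only 1 listed at 0 in every MC38-LM3b library, whereas 2 of the 7633 genes were under 1 TPM in every derivative library. These limits were chosen after its values were seen. Grb10 passed the filter on low values through its MC38-P libraries only, so no test between the derivatives is given for it.

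**Figure D1:**
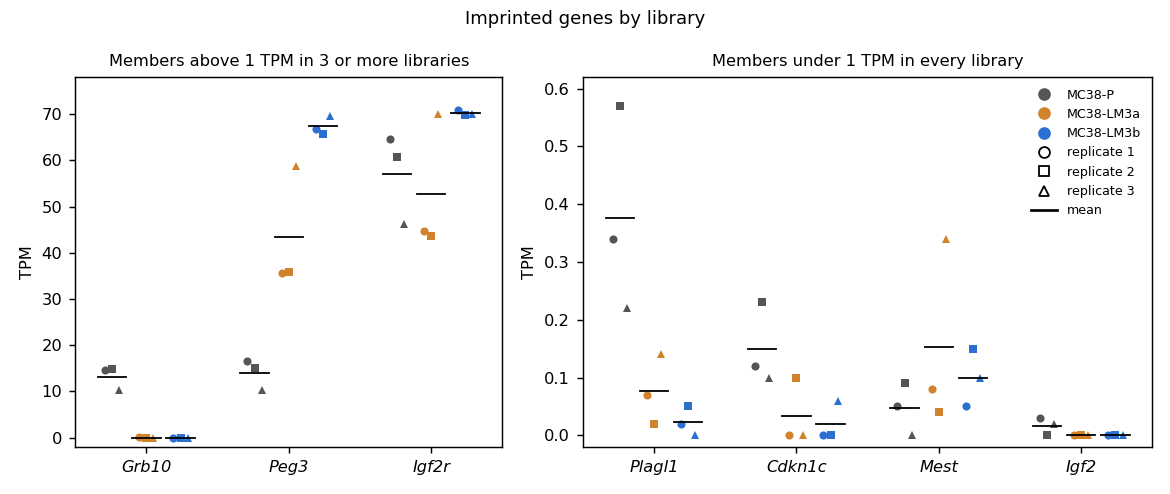
TPM of the 7 listed genes in each of the 9 libraries (colour: line, marker: replicate, black bar: mean of 3), with Grb10, Peg3 and Igf2r on the left and the genes under 1 TPM on the right on a smaller axis. Grb10 falls from 10.25 to 14.84 TPM in MC38-P to at most 0.04 TPM in the derivatives, while Peg3 rises from at most 16.55 TPM to at least 35.66 TPM.

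Of the listed genes nearest to Grb10 on chromosome 11, those that were tested did not share its pattern. The 3 nearest listed genes on each side were Ikzf1, Fignl1 and Ddc, and Sec61g, Egfr and Fbxo48. They were taken by gene order, and their distances from Grb10 were not measured. Cobl, another imprinted gene of chromosome 11, was not listed. Ddc, which encodes the decarboxylase that makes dopamine and is imprinted in the heart, was at or under 0.18 TPM in every library, and Ikzf1, a lymphoid transcription factor, was at or under 0.02 TPM. Being as low in MC38-P, neither could show a fall. Egfr, the epidermal growth factor receptor, was at 13.98, 14.57 and 10.69 TPM in MC38-P, at 10.77, 10.23 and 14.43 TPM in MC38-LM3a and at 15.93, 15.88 and 14.96 TPM in MC38-LM3b. Its groups overlapped in MC38-LM3a, and it passed the test in neither derivative (log2 fold change -0.14, adjusted p = 0.532, and 0.25, adjusted p = 0.182). Fignl1, which acts in DNA repair, gave -0.06 (adjusted p = 0.730) and 0.15 (adjusted p = 0.241), and Fbxo48 gave 0.02 (adjusted p = 0.957) and 0.43 (adjusted p = 0.123). Sec61g, a subunit of the channel that moves proteins into the endoplasmic reticulum, rose by 0.41 (adjusted p = 0.0279) and 0.53 (adjusted p = 0.00530), and neither call held with GC content and length taken into account (adjusted p = 0.0987 and 0.0625). Across the 933 tested genes of chromosome 11 the median difference from MC38-P was -0.00 for MC38-LM3a and 0.20 for MC38-LM3b, close to the -0.00 and 0.21 of all tested genes (log2 scale).

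**Figure D2:**
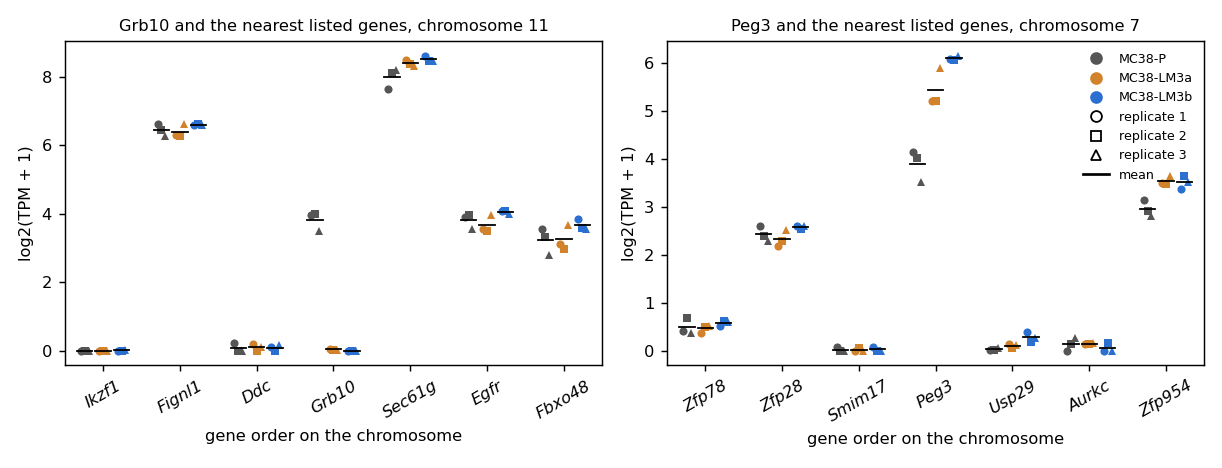
log2(TPM + 1) of Grb10 (left) and Peg3 (right) and their 3 nearest listed genes on each side, in gene order along the chromosome, in each library (colour: line, marker: replicate, black bar: mean). Grb10 stands apart from nearest listed genes such as Fignl1 and Egfr, whose distances were not measured, and Usp29 beside Peg3 stays at or under 0.31 TPM.

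The genes whose levels across the 9 libraries were most like that of Grb10 on the log2(TPM + 1) scale were Thbs2 (r = 0.999), Ephb2 (r = 0.999), Foxred2 (r = 0.998), Pde3b (r = 0.996) and Snu13 (r = 0.996). These are descriptions over 9 libraries that fall into 3 lines, and 356 of the 11284 other tested genes had an r of at least 0.95. Thbs2, a secreted matrix protein that restrains blood vessel growth, had a mean of 7.23 ± 1.77 TPM in MC38-P, 0.0300 ± 0.0200 TPM for MC38-LM3a and 0.0567 ± 0.0289 TPM for MC38-LM3b (SD, n = 3). The receptor tyrosine kinase gene Ephb2 went from 23.5 TPM in MC38-P to 2.13 and 2.02 TPM. The phosphodiesterase gene Pde3b, which lowers cyclic AMP downstream of insulin, went from 3.85 TPM to 0.217 and 0.273 TPM. Snu13 went only from 373 TPM to 215 and 212 TPM, so a high r does not give the size of a fall. Thbs2, Foxred2 and Pde3b passed the filter on low values through MC38-P only.

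Peg3 (NCBI Gene 18616, chromosome 7) rose in both derivatives. Its levels were 16.55, 15.17 and 10.37 TPM in MC38-P, 35.66, 35.75 and 58.81 TPM in MC38-LM3a and 66.88, 65.61 and 69.50 TPM in MC38-LM3b. Every derivative library lay above every MC38-P library. The log2 fold change against MC38-P was 1.55 (SE 0.199, adjusted p = 0.000274, limma with Benjamini-Hochberg adjustment over 11287 tested genes) in MC38-LM3a and 2.21 (SE 0.199, adjusted p = 2.05e-05) in MC38-LM3b, and the mean TPM was 3.09-fold and 4.80-fold that of MC38-P. Peg3 thereby met the limit for a differentially expressed gene (DEG, adjusted p under 0.05 with a log2 change of more than 1 either way) in both comparisons, as 2.89% of all tested genes did in MC38-LM3a and 3.93% did in MC38-LM3b. The 2 comparisons share the MC38-P libraries. MC38-LM3b lay above MC38-LM3a by 0.66 (SE 0.199), which did not pass the test (adjusted p = 0.119), although without MC38-LM3a replicate 3, the highest of its group, the difference was 0.90 (adjusted p = 0.00388). In that fit 56.4% of all tested genes passed between the derivatives.

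Of the genes beside Peg3, 1 also rose. Usp29, a paternally expressed gene that starts next to Peg3 and is read in the opposite direction, was at 0.01, 0.01 and 0.04 TPM in MC38-P, 0.11, 0.04 and 0.08 TPM in MC38-LM3a and 0.31, 0.14 and 0.20 TPM in MC38-LM3b. The MC38-LM3b libraries lay above all the others, but every value was too low for a test. Zfp954, a zinc finger gene further along, rose by 0.58 (adjusted p = 0.00497) in MC38-LM3a and 0.56 (adjusted p = 0.00413) in MC38-LM3b. Zfp28, on the other side, gave -0.10 (adjusted p = 0.631) and 0.15 (adjusted p = 0.357).

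Igf2r (NCBI Gene 16004, chromosome 17) was the most abundant of the 7 listed genes per transcript length. Its levels were 64.61, 60.63 and 46.18 TPM in MC38-P, 44.71, 43.61 and 70.13 TPM in MC38-LM3a and 70.97, 69.89 and 69.93 TPM in MC38-LM3b. MC38-P replicate 3 lay below the others of its group, MC38-LM3a replicate 3 lay above its own, and the MC38-P and MC38-LM3a values overlapped. Igf2r passed the test in neither derivative (log2 fold change -0.13, SE 0.172, adjusted p = 0.625 in MC38-LM3a, and 0.31, SE 0.172, adjusted p = 0.160 in MC38-LM3b). MC38-LM3b against MC38-LM3a gave 0.44 (SE 0.172, adjusted p = 0.119). The outcome turned on MC38-LM3a replicate 3: without it Igf2r passed all 3 tests, at -0.35 (adjusted p = 0.0309), 0.31 (adjusted p = 0.0219) and 0.66 (adjusted p = 0.00388). In that fit 37.4%, 59% and 56.4% of all tested genes passed the same 3 tests, so the calls are not particular to Igf2r. The MC38-LM3b value against MC38-P stayed at 0.31, and only its adjusted p changed.

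The libraries differed along transcript length, and these transcripts are long. The longest annotated transcript of Igf2r has 8887 bases, and 3.79% of the tested genes have a longer one. That of Peg3 has 8694 bases, and that of Grb10 has 5061 bases. Spearman's correlation between transcript length and a library's difference from the others of its group, across 11096 genes that are not independent replicates, was 0.51, 0.41 and -0.62 in MC38-P, -0.55, -0.51 and 0.64 in MC38-LM3a and within ± 0.02 in MC38-LM3b.

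After a smooth offset along GC content and length was taken from each library, Igf2r was at 5.90, 5.90 and 5.91 in MC38-P, 5.85, 5.84 and 5.99 in MC38-LM3a and 5.91, 5.92 and 5.93 in MC38-LM3b on the corrected log2 scale. Its log2 fold change became -0.01 (adjusted p = 0.897) and 0.01 (adjusted p = 0.817), and MC38-LM3b against MC38-LM3a became 0.02 (adjusted p = 0.799). Corrected Peg3 was at 4.01, 3.98 and 3.85 in MC38-P, 5.52, 5.53 and 5.74 in MC38-LM3a and 5.84, 5.84 and 5.92 in MC38-LM3b. Its log2 fold change stayed at 1.65 (adjusted p = 5.61e-08) and 1.92 (adjusted p = 1.75e-08), whereas MC38-LM3b against MC38-LM3a shrank to 0.27 (adjusted p = 0.113). Grb10 differed by -3.74 in MC38-LM3a after the same correction.

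**Figure D3:**
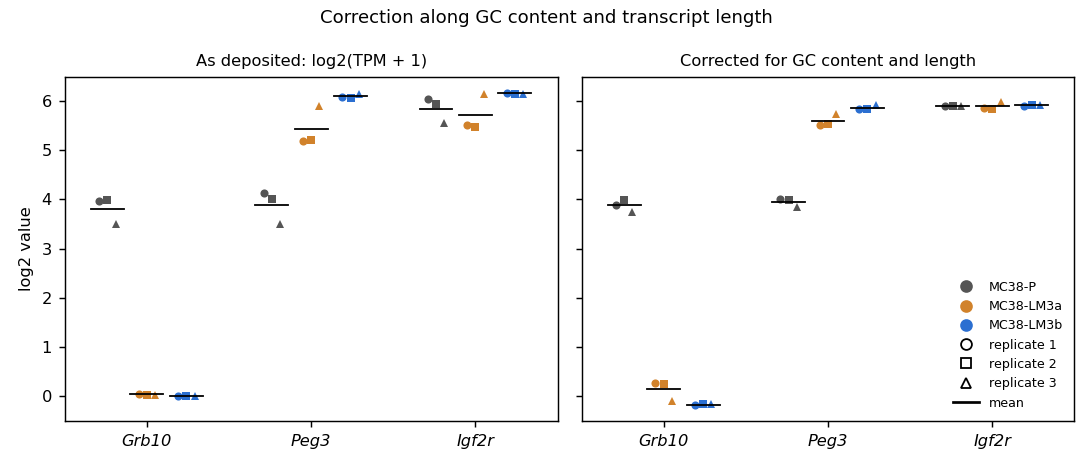
log2 values of Grb10, Peg3 and Igf2r by library as deposited (left, log2(TPM + 1)) and with the GC content and length offsets removed (right), with colour for the line, marker for the replicate and a bar for the mean. The spread of Igf2r in MC38-P narrows to 5.90 to 5.91, while Grb10 and Peg3 stay separated between MC38-P and the derivatives.

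Igf2r sits beside genes of low expression, with Plg, Mas1, Mrgprh and Pnldc1 at or under 0.27 TPM in every library. Of its other neighbours, Agpat4, which acts in phospholipid synthesis, rose by 0.30 (adjusted p = 0.00712) in MC38-LM3a and 0.29 (adjusted p = 0.00568) in MC38-LM3b. Map3k4, a stress kinase gene, gave -0.11 (adjusted p = 0.575) and 0.20 (adjusted p = 0.203). Of 7 genes for the sorting of lysosomal enzymes that ride on Igf2r, none rose and 2 fell in MC38-LM3a, and 1 rose and 1 fell in MC38-LM3b, where 14.1% of all tested genes rose and 13.8% fell in MC38-LM3a and 35.6% rose and 11.2% fell in MC38-LM3b. With the GC content and length offsets 1 rose and 2 fell in each derivative. In that fit 26.5% of all genes rose and 24.6% fell in MC38-LM3a, and 29.3% rose and 28.3% fell in MC38-LM3b. Gga2, an adaptor that loads these receptors into transport vesicles, fell by 0.58 (adjusted p = 0.00358) and by 0.40 (adjusted p = 0.0164), and the MC38-LM3b call was lost in 3 of the 9 fits that left out 1 library.

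The other 4 listed genes stayed under 1 TPM in every library and were not tested. Plagl1, a paternally expressed zinc finger gene that halts the cell cycle, was at 0.34, 0.57 and 0.22 TPM in MC38-P, 0.07, 0.02 and 0.14 TPM in MC38-LM3a and 0.02, 0.05 and 0 TPM in MC38-LM3b. All its derivative values lay below all its MC38-P values. Cdkn1c, the maternally expressed inhibitor of cyclin-dependent kinases p57, was at 0.12, 0.23 and 0.10 TPM in MC38-P, 0, 0.10 and 0 TPM in MC38-LM3a and 0, 0 and 0.06 TPM in MC38-LM3b, and the MC38-P and MC38-LM3a values met at 0.10 TPM. Mest, a paternally expressed gene of the hydrolase family, was at 0.05, 0.09 and 0 TPM in MC38-P, 0.08, 0.04 and 0.34 TPM in MC38-LM3a and 0.05, 0.15 and 0.10 TPM in MC38-LM3b, with overlap between all groups. Igf2, the fetal growth factor that Igf2r clears, was at 0.03, 0 and 0.02 TPM in MC38-P and was listed at 0 in all 6 derivative libraries. At such levels a difference could not be resolved without counts.

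H19 and Meg3, long noncoding RNAs read from the maternal copy, and Dlk1, the paternal neighbour of Meg3 that encodes a Notch-related surface protein, were not among the listed genes, so no level can be given. Protein-coding genes made up 98.5% of the listed genes and 5 listed genes were long noncoding RNAs. Of 8 genes of the Notch pathway around Dlk1, 5 were tested. None rose and 2 fell in MC38-LM3a, beside 14.1% and 13.8% of all tested genes, and 1 rose and 1 fell in MC38-LM3b, beside 35.6% and 11.2%. With the GC content and length offsets 1 rose and 2 fell in each derivative. All genes in that fit gave 26.5% higher and 24.6% lower in MC38-LM3a, and 29.3% higher and 28.3% lower in MC38-LM3b. Hes1, the classic Notch target, was at 24.99, 20.06 and 19.97 TPM in MC38-P, 15.26, 12.81 and 14.84 TPM in MC38-LM3a and 13.20, 13.67 and 12.41 TPM in MC38-LM3b. It fell by 0.56 (adjusted p = 0.00428) and by 0.68 (adjusted p = 0.000993).

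Of a wider list of 66 other imprinted genes, 40 were listed and 25 were tested, and 14 of the listed genes were under 1 TPM in every library. The list holds genes whose imprinting may be limited to certain tissues, and whether they are imprinted in these cells was not measured. In MC38-LM3a 7 of the 25 rose and 2 fell, where 14.1% of all tested genes rose and 13.8% fell. In MC38-LM3b 10 rose and 2 fell, where 35.6% of all tested genes rose and 11.2% fell. The 25 genes had a median of -0.00 (MC38-LM3a) and 0.25 (MC38-LM3b) on the log2 scale, beside -0.00 and 0.21 for all tested genes. After correction for GC content and length, which brought the medians of all tested genes to 0.01 and 0.01, 7 rose and 4 fell in MC38-LM3a, where 26.5% of all genes rose and 24.6% fell in the same fit, and 8 rose and 5 fell in MC38-LM3b, where 29.3% rose and 28.3% fell.

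Of the 25 genes, Phlda2 and Slc38a4 were DEGs, both in both derivatives. Phlda2, a maternally expressed gene that limits placental growth, was at 55.52, 60.36 and 59.14 TPM in MC38-P, 13.59, 12.30 and 13.45 TPM in MC38-LM3a and 8.26, 9.87 and 14.68 TPM in MC38-LM3b. It fell by 2.07 (adjusted p = 9.48e-06) and by 2.35 (adjusted p = 3.01e-06), and no derivative library reached the MC38-P range. Slc38a4, a paternally expressed amino acid transporter of liver and placenta, was at 1.87, 1.35 and 1.74 TPM in MC38-P, 7.39, 8.81 and 8.07 TPM in MC38-LM3a and 11.06, 10.54 and 11.37 TPM in MC38-LM3b. It rose by 1.78 (adjusted p = 3.10e-06) and 2.18 (adjusted p = 5.62e-07), and the groups did not overlap.

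Phlda2 lies with Cdkn1c, Cd81, Osbpl5, Tssc4, Nap1l4 and Slc22a18 in the Kcnq1 cluster of chromosome 7, whose tested genes moved in different directions. Cd81, a tetraspanin of the cell surface, was at 3.89, 3.39 and 3.18 TPM in MC38-P, 2.42, 1.73 and 2.39 TPM in MC38-LM3a and 1.20, 1.40 and 1.56 TPM in MC38-LM3b. It fell by 0.50 (adjusted p = 0.0160) and by 0.91 (adjusted p = 0.000390), and with the GC content and length offsets it met the DEG limit in MC38-LM3b (-1.01, adjusted p = 2.84e-05). Its MC38-LM3a call did not hold without MC38-P replicate 1 (adjusted p = 0.0594) or without MC38-LM3a replicate 2 (adjusted p = 0.0634). Osbpl5, a lipid transfer protein, was at 11.11, 11.08 and 10.30 TPM in MC38-P, 17.20, 17.37 and 20.01 TPM in MC38-LM3a and 22.22, 23.95 and 20.98 TPM in MC38-LM3b, and rose by 0.70 (adjusted p = 0.000496) and 0.98 (adjusted p = 4.25e-05). Tssc4 gave -0.17 (adjusted p = 0.0948) and -0.03 (adjusted p = 0.712), and Nap1l4, a histone chaperone, gave -0.04 (adjusted p = 0.703) and 0.10 (adjusted p = 0.194). Slc22a18, not tested, ranged from 0.49 to 1.36 TPM in MC38-P, from 0.09 to 0.69 TPM in MC38-LM3a and from 0 to 0.31 TPM in MC38-LM3b.

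Among imprinted genes of other clusters, Pon2, an antioxidant lactonase of the Peg10 region, was at 48.40, 40.81 and 37.94 TPM in MC38-P, 70.05, 65.15 and 72.16 TPM in MC38-LM3a and 83.47, 84.46 and 80.88 TPM in MC38-LM3b. It rose by 0.70 (adjusted p = 0.000286) and 0.96 (adjusted p = 2.79e-05). Its cluster neighbour Pon3 rose by 0.46 (adjusted p = 0.0331) and 0.79 (adjusted p = 0.00152), whereas Peg10 and Sgce, the paternally expressed genes at the centre of the cluster, were at or under 0.08 TPM in every library. Gnas, which encodes the stimulatory G protein subunit, was the most abundant of the 25 genes, at 1139 to 1278 TPM in MC38-P, 1314 to 1482 TPM in MC38-LM3a and 1580 to 1605 TPM in MC38-LM3b. It rose by 0.22 (adjusted p = 0.0199) and 0.40 (adjusted p = 0.000598), the MC38-LM3b call was lost with median centring (0.18, adjusted p = 0.133), and the MC38-LM3a call was lost without MC38-P replicate 3 (adjusted p = 0.0541), without MC38-LM3a replicate 1 (adjusted p = 0.0684) and in 4 of the other settings tried.

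**Figure D4:**
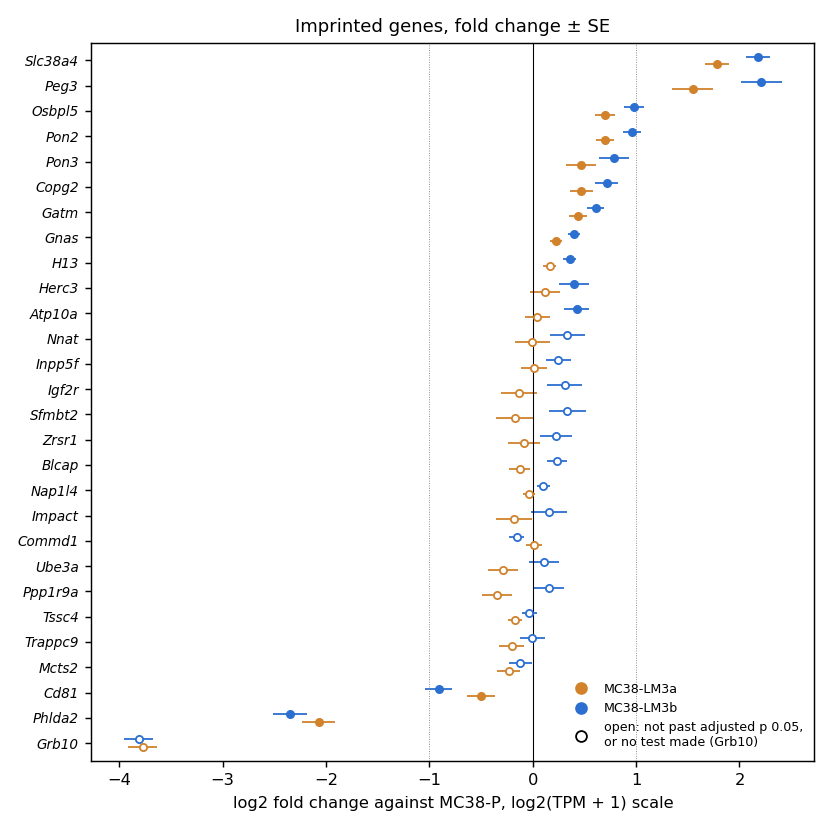
log2 fold change against MC38-P on the log2(TPM + 1) scale, with SE, of the tested imprinted genes in MC38-LM3a and MC38-LM3b, where filled points passed adjusted p 0.05, open points did not (Grb10 had no test) and dotted lines mark the DEG limit of 1. Phlda2 lies below -2 and Peg3 and Slc38a4 above 1.5 in both derivatives, while most genes lie within 1 of 0.

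The factors that keep imprints in place were read from a list of 24 genes, of which 20 were tested. The list also holds enzymes that set or remove DNA methylation, such as Dnmt3b and Tet2, so its counts are not of maintenance factors alone. In MC38-LM3a none rose and 5 fell, beside 14.1% and 13.8% of all tested genes, and in MC38-LM3b 3 rose and 3 fell, beside 35.6% and 11.2%. Uhrf1, which brings the maintenance methyltransferase to newly copied DNA, was at 199.82, 187.52 and 170.57 TPM in MC38-P, 128.56, 131.57 and 154.74 TPM in MC38-LM3a and 154.78, 158.10 and 158.87 TPM in MC38-LM3b. It fell by 0.43 (adjusted p = 0.00323) and by 0.24 (adjusted p = 0.0364). Hells, a chromatin remodeller needed for DNA methylation, fell by 0.64 (adjusted p = 0.00460) and by 0.48 (adjusted p = 0.0132). Dnmt3b, a methyltransferase for unmethylated DNA, fell from 1.99 ± 0.315 TPM to 0.917 ± 0.290 and 1.21 ± 0.0907 TPM (SD, n = 3), by 0.65 (adjusted p = 0.00549) and by 0.43 (adjusted p = 0.0256). The MC38-LM3b calls of Uhrf1 and Dnmt3b were lost in 5 of the 9 fits that left out 1 library, whereas with the GC content and length offsets Uhrf1 fell by 0.42 (adjusted p = 9.13e-06), Hells by 0.77 (adjusted p = 2.78e-07) and Dnmt3b by 0.64 (adjusted p = 0.000722) in MC38-LM3b. Dnmt1, the maintenance methyltransferase itself, gave -0.32 (adjusted p = 0.104) and 0.01 (adjusted p = 0.936), and with the GC content and length offsets it fell by 0.25 in both (adjusted p = 0.00147 and 0.00124). Zfp57, which guards methylation at imprint control regions, was at 42.22, 39.42 and 30.05 TPM in MC38-P, 45.34, 42.40 and 61.45 TPM in MC38-LM3a and 59.84, 58.66 and 60.46 TPM in MC38-LM3b. It passed the test in MC38-LM3b (0.68, adjusted p = 0.00408) and not in MC38-LM3a (0.40, adjusted p = 0.0649), and the difference between the derivatives was 0.28 (adjusted p = 0.171). With the offsets it passed in MC38-LM3a as well (0.35, adjusted p = 0.0129). After correction for GC content and length, 2 of the 20 rose and 11 fell in MC38-LM3a, beside 26.5% and 24.6% of all genes in that fit, and 2 rose and 9 fell in MC38-LM3b, beside 29.3% and 28.3%.

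Grb10 acts on the insulin and IGF1 receptors, so the genes of that pathway were described from a list of 35, of which 30 were tested. In MC38-LM3a 1 rose and 4 fell, beside 14.1% and 13.8% of all tested genes, and in MC38-LM3b 11 rose and none fell, beside 35.6% and 11.2%. The median log2 fold change was -0.07 and 0.27. After the correction for GC content and length 8 rose and 5 fell in MC38-LM3a (all genes in that fit, 26.5% and 24.6%), and 10 rose and 4 fell in MC38-LM3b (29.3% and 28.3%). Igf1r, the receptor of IGF1 and IGF2, was at 8.19, 6.85 and 5.04 TPM in MC38-P, 14.13, 13.29 and 22.96 TPM in MC38-LM3a and 24.72, 24.34 and 24.31 TPM in MC38-LM3b. It rose by 1.19 (SE 0.199, adjusted p = 0.00141) and 1.75 (SE 0.199, adjusted p = 9.37e-05), and was the only DEG of the list in either comparison. Without MC38-LM3a replicate 3 the MC38-LM3a value was 0.96, under the DEG limit, and after correction it was 1.34 (adjusted p = 8.33e-08) with 1.45 (adjusted p = 4.12e-08) in MC38-LM3b.

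The insulin receptor Insr passed the test in neither derivative (-0.21, adjusted p = 0.426, and 0.28, adjusted p = 0.219). Irs2, the substrate that passes the receptors' signal on, fell by 0.63 (adjusted p = 0.00877) in MC38-LM3a and gave -0.31 (adjusted p = 0.101) in MC38-LM3b, with a difference of 0.32 between the derivatives (adjusted p = 0.135). With the GC content and length offsets it fell in MC38-LM3b too, by 0.58 (adjusted p = 5.52e-05), and the derivatives differed by -0.05 (adjusted p = 0.663). Akt1, a kinase downstream, gave 0.14 (adjusted p = 0.0928) in MC38-LM3a and rose by 0.32 (adjusted p = 0.00128) in MC38-LM3b, and with the offsets it passed in MC38-LM3a as well (0.23, adjusted p = 0.00283). The ligand Igf1 was at or under 0.04 TPM in every library. Of the adaptors related to Grb10, Grb7 was at or under 0.06 TPM, and Grb14 was at 1.46, 0.85 and 1.00 TPM in MC38-P, 1.43, 0.93 and 1.34 TPM in MC38-LM3a and 1.66, 1.54 and 1.65 TPM in MC38-LM3b. Grb14 passed the test in neither derivative (0.09, adjusted p = 0.688, and 0.33, adjusted p = 0.0781).

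**Figure D5:**
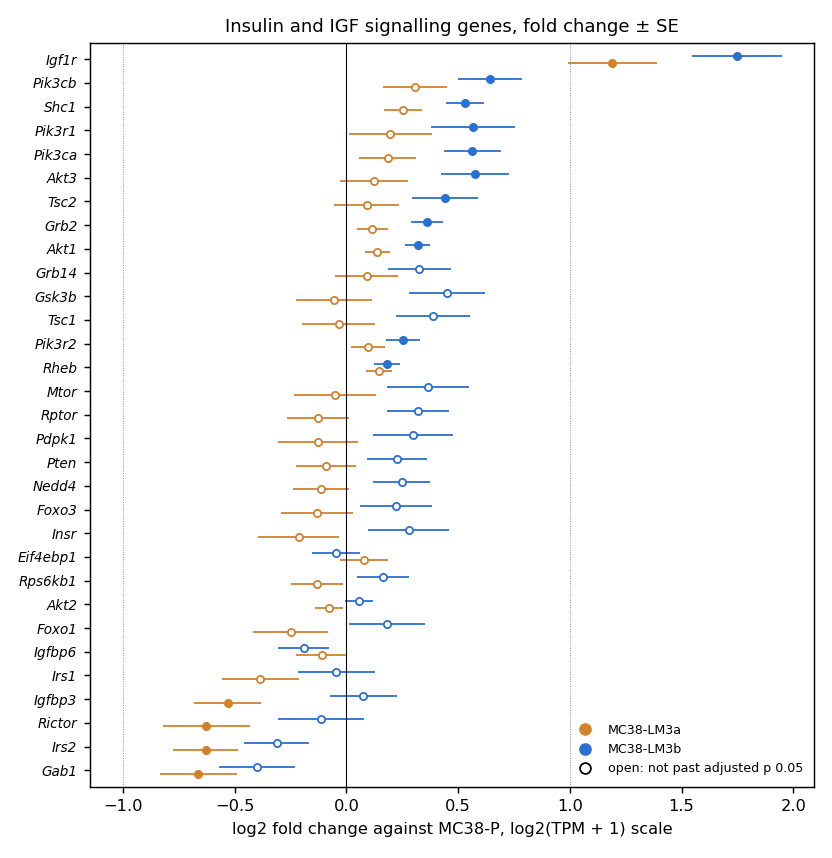
log2 fold change against MC38-P on the log2(TPM + 1) scale, with SE, of the tested insulin and IGF pathway genes and Grb14, in MC38-LM3a and MC38-LM3b, where filled points passed adjusted p 0.05 and dotted lines mark the DEG limit of 1. Igf1r lies above 1 in both derivatives, and the median of all tested genes is -0.00 in MC38-LM3a and 0.21 in MC38-LM3b.

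Of 9 oncofetal genes that act on Igf2 and H19 RNA or share their fetal pattern, 6 were tested, and 1 rose and 2 fell in MC38-LM3a (all tested genes, 14.1% and 13.8%), while 2 rose and 3 fell in MC38-LM3b (all tested genes, 35.6% and 11.2%). With the GC content and length offsets 1 rose and 4 fell in MC38-LM3a (all genes in that fit, 26.5% and 24.6%), and 1 rose and 3 fell in MC38-LM3b (29.3% and 28.3%). Igf2bp3, an RNA-binding protein of Igf2 RNA, was at 37.61, 38.13 and 30.66 TPM in MC38-P, 6.81, 6.86 and 8.61 TPM in MC38-LM3a and 10.13, 9.89 and 9.89 TPM in MC38-LM3b. It was a DEG in both derivatives and fell by 2.11 (adjusted p = 1.02e-06) and by 1.73 (adjusted p = 3.15e-06). Its relative Igf2bp2 rose by 0.32 (adjusted p = 0.0231) and 0.54 (adjusted p = 0.000907), and the MC38-LM3a call did not hold without MC38-P replicate 2 (adjusted p = 0.0540) or without MC38-P replicate 3 (adjusted p = 0.0607). Hmga1, a chromatin protein of fetal and tumor cells, fell by 0.28 (adjusted p = 0.00132) and by 0.25 (adjusted p = 0.00191), and the MC38-LM3a call was lost with median centring (adjusted p = 0.0627).

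Beside the low Cdkn1c, 4 of 6 other inhibitors of cyclin-dependent kinases were tested, and none fell. In MC38-LM3a 2 rose and in MC38-LM3b 4 did, where 14.1% and 35.6% of all tested genes rose. With the GC content and length offsets 3 rose in each, where 26.5% and 29.3% of all genes did, and Cdkn1b no longer passed in MC38-LM3b (0.21, adjusted p = 0.0659). Cdkn2d was at 41.37, 42.18 and 42.31 TPM in MC38-P, 68.76, 62.94 and 64.74 TPM in MC38-LM3a and 71.58, 73.84 and 65.89 TPM in MC38-LM3b, and rose by 0.63 (adjusted p = 0.000115) and 0.73 (adjusted p = 3.34e-05). Cdkn1a, the p53 target p21, rose by 0.30 (adjusted p = 0.00471) and 0.27 (adjusted p = 0.00602), and with each library centred on its median the MC38-LM3b value was 0.04 (adjusted p = 0.667).

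Few genes passed the test between the derivatives. In limma 6 of the 11287 tested genes (0.0532%) passed adjusted p between MC38-LM3b and MC38-LM3a, 3 of them as DEGs (0.0266%), and 4296 (38.1%) had an unadjusted p under 0.05. Neither Peg3 nor Igf2r passed, although both had an unadjusted p under 0.05. None of the 25 other imprinted genes passed either, and 15 had an unadjusted p under 0.05, or 4 after correction for GC content and length, where 22.5% of all genes had one. Without MC38-LM3a replicate 3, 19 of the 25 passed, and so did 56.4% of all tested genes in that fit.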

How the data were processed

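Poly(A) RNA of 9 libraries was sequenced on the DNBSEQ platform, and the TPM values deposited by the authors with 2 decimals were used. The submitters' processing notes name HISAT and GRCm39; the counting tool is not given in the sources used here. No counts were at hand, so the authors' DESeq2 test was replaced by limma 3.58.1 in R 4.3.3 on log2(TPM + 1), over the 11287 genes that reached 1 TPM in 3 or more libraries, with 1 mean per group, a trended variance and Benjamini-Hochberg adjustment over all of them. On simulated data 200, 199 and 200 of 200 genes changed by 2 on the log2 scale were recovered in MC38-LM3a against MC38-P, MC38-LM3b against MC38-P and MC38-LM3b against MC38-LM3a. Of the unchanged genes 1, 0 and 1 were called as DEGs. The simulated noise was independent between genes, unlike the shared differences along transcript length in these libraries, so it says nothing of their effect on the calls. Groups came from the sample labels. The labels call the replicates biological without naming separate cultures, so p-values measure the spread between these libraries, which may be partly technical.

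The 10 genes and all lists were chosen with earlier results of these data known. Of each list, DEGs and up to 3 genes with the highest and up to 3 with the lowest mean change among those called against MC38-P in both derivatives were named; genes named besides (Zfp57, Dnmt1, Insr, Irs2, Akt1, Cdkn1b, Pon3, Tssc4, Nap1l4, Slc22a18, Peg10, Sgce, Igf1) were chosen after their values were seen. Offsets along GC content and the longest GENCODE M21 transcript were smoothed by loess (span 0.3) for the 98.3% of tested genes that matched by NCBI Gene number. Gene order, biotypes and promoters came from RefSeq on GRCm38.p6. Alternatives were a pseudocount of 0.1, other filters, only the 6 libraries compared, a replicate block, quantile normalization, median centring, the GC and length offsets and leaving out each library. A count test was not run.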

Additional observations from a re-analysis of the deposited data

How the results depend on the processing

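Grb10, Peg3, Igf2r and the list genes that the naming rule gave kept their direction against MC38-P in every setting that gave a value. Of genes named besides and of neighbours, refitted only with the GC and length offsets, Insr, Nap1l4, Fignl1, Egfr, Map3k4 and Zfp28 went from above to below 0 in MC38-LM3b, and Fbxo48 did in MC38-LM3a, without passing the test in either fit, while Dnmt1 in MC38-LM3b went from 0.01 (adjusted p = 0.936) to a fall that passed (-0.25, adjusted p = 0.00124). Grb10 could not be fitted without any 1 of the MC38-P libraries, since it then failed the filter; in the other 6 fits that left out a library its difference was -3.78 to -3.77 (MC38-LM3a) and -3.81 (MC38-LM3b). With a pseudocount of 0.1 Grb10 differed by -6.70 and -7.04, and in MC38-LM3b it differed by -4.04 with median centring and by -4.05 with GC and length offsets, values that depend on the pseudocount because it is listed at or near 0. That pseudocount also raised the DEGs from 326 to 550 (MC38-LM3a) and from 444 to 705 (MC38-LM3b). Leaving out 1 library gave 286 to 349 and 358 to 507 DEGs, and 7 to 11 and 10 to 15 other imprinted genes called. In MC38-LM3a 22.1% of all tested genes passed where 7 were called, and 37.4% where 11 were. In MC38-LM3b 33% to 36.8% of all tested genes passed where 10 were called, and 59% where 15 were. Without MC38-P replicate 3 the MC38-LM3a calls were 5 higher and 5 lower, beside 11.9% and 16.9% of all tested genes. Between the derivatives the 3 DEGs became 1 with the 5 TPM filter, 0 to 19 with 1 library left out and 20 without MC38-P replicate 3 and MC38-LM3a replicate 3, a setting added after seeing the data; the other imprinted genes called went from 0 to 19 with 1 library left out (19 without MC38-LM3a replicate 3, where 56.4% of all tested genes passed) and to 21 (19 higher, 2 lower) in that added setting, where 71.7% of all tested genes passed. It also gave 21 (8 higher, 13 lower) against MC38-P in MC38-LM3a, where 63.6% of all tested genes passed (18.4% higher, 45.2% lower), and Igf2r at -0.49 (adjusted p = 1.28e-05), 0.16 (adjusted p = 0.00607) and 0.66 (adjusted p = 2.85e-06) and Peg3 at 0.90 (adjusted p = 2.26e-06) between the derivatives. In that added setting 65.3% of all tested genes passed in MC38-LM3b against MC38-P. With only the 6 libraries compared Igf2r passed in MC38-LM3b (0.31, adjusted p = 0.0352), where 54.9% of all tested genes passed. With 1 library left out Igf2r ranged from -0.35 to -0.014, from 0.16 to 0.40 and from 0.32 to 0.66, and Peg3 from 1.31 to 1.67, from 2.02 to 2.33 and, between the derivatives, from 0.54 to 0.90. The cause was not tested.

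GC and length offsets gave 302 DEGs (149 higher, 153 lower) in MC38-LM3a and 373 (181 higher, 192 lower) in MC38-LM3b, against 311 higher and 133 lower as deposited in MC38-LM3b. Same-numbered libraries of different groups did not deviate together (r from -0.66 to 0.07 over 9 pairs), so the numbers do not pair the samples. With a replicate block there were 322, 444 and 2 DEGs, Peg3 stayed at 1.55 (adjusted p = 0.00327) and 2.21 (adjusted p = 0.000555), and of the named genes Gnas and Igf2bp2 in MC38-LM3a (adjusted p = 0.0642 and 0.0699) and Uhrf1 and Dnmt3b in MC38-LM3b (adjusted p = 0.0862 and 0.0531) no longer passed. The files give no depth, which limits what can be said of genes under 1 TPM.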

Other observations

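Several imprinted genes known from placenta, brain or muscle were near or at 0 throughout. Zdbf2 and Rasgrf1 were at or under 0.01 and 0.04 TPM in every library, and Rtl1, a retrotransposon-derived gene of the cluster of Dlk1 and Meg3, was at or under 0.07 TPM. Mkrn3, a paternally expressed gene of the Prader-Willi region, was at 0.69, 0.54 and 0.39 TPM in MC38-P, 0.47, 0.50 and 0.44 TPM in MC38-LM3a and 0.91, 0.87 and 0.86 TPM in MC38-LM3b, so its MC38-LM3b values lay above the other 6. Among low genes linked to the pathways above, the IGF-binding protein gene Igfbp4 was at 0.88, 0.84 and 0.50 TPM in MC38-P and at or under 0.28 TPM in every derivative library, and the Notch target Hey1 was at 1.19, 0.94 and 1.15 TPM in MC38-P, 0.43, 0.43 and 0.47 TPM in MC38-LM3a and 0.43, 0.60 and 0.59 TPM in MC38-LM3b. These genes were chosen after their values were seen and were not tested.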
